A study of Drosophila melanogaster with 2 samples.

Results

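The regions described here are the Fer3 binding peaks that lie in exons away from promoters: 202 of the 5636 peaks of the reproducible list. A peak was taken when its summit, the base of highest signal in the deposited interval, lay more than 500 bp from every annotated start of a protein-coding transcript and inside any annotated exon. In all, 769 of the 5636 summits were exonic, and 567 of those were left out because they lay within 500 bp of a protein-coding start. The 202 peaks fell in 180 genes, with 103 summits in exons of noncoding transcripts, 61 in 3′ UTRs, 29 in 5′ UTRs and 9 in coding exons. No signal value entered this choice beyond a peak's presence in the reproducible list.

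Both samples came from whole Drosophila melanogaster embryos of 6 to 24 h that carried 1 transgene, in which GFP is joined to the C-terminal end of Fer3. Chromatin was sonicated to 200 to 800 bp and precipitated with an antibody against GFP. The 2 samples were biological replicates of 1 group, from separate biosamples of the same line, so the design holds no second condition and no untagged group. Whole embryos mix every tissue, and the labels do not name the sequence that drives the transgene. The reproducible list joins both replicates by the irreproducible discovery rate. Each peak carries a signal value, a peak height whose unit is not defined, and ranks below run from 1 for the highest peak of a list. The lists hold no read counts, so depth is unknown. Intervals in parentheses are exact 95% Clopper-Pearson intervals and cover counting error over peaks only. No test was made, because peaks of the same 2 libraries are not replicates of a condition.

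Fer3 belongs to the basic helix-loop-helix proteins, which bind as dimers to E-boxes, DNA sites of the form CANNTG. An exon can hold such sites as well, since the promoter of a noncoding RNA, an enhancer or an insulator may overlap it. Long noncoding RNAs (lncRNAs) are transcripts without a long reading frame, and some are the primary transcripts from which microRNAs are cut. A 5′ UTR and a 3′ UTR are the untranslated ends of a messenger RNA, before the start codon and after the stop codon.

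The 30 bases around the summit are shown for high peaks of each exon class, because they give the DNA under strong signals. Coding exons are represented by Pde1c, the next below otp, whose sequence is not shown. All are read 5′ to 3′ on the plus strand of dm6, from the RefSeq copy of that assembly, and E-boxes are in capitals. The windows are chrX:12751377-12751406 in the lncRNA Vinr, chr2L:14024063-14024092 in the lncRNA CR31840, chrX:17178679-17178708 in the 5′ UTR of baz, chrX:6599482-6599511 in the 3′ UTR of APC7 and chr2L:11816565-11816594 in a coding exon of Pde1c.
Vinr: tttctCACTTGtgtaacaatattttaattt
CR31840: caatatgtacagagtaCACATGttatttga
baz: tacattgttaatttagttatgtttttgtat
APC7: tatcatccattgtctaaaagtgaatgtttt
Pde1c: gcagcgcCATCTGccggctccgCAGCTGgc
The first of these windows hold mostly A and T, and those of baz and APC7 hold no E-box. Nor do the windows, not shown, of the noncoding members at ranks 46 and 83, in CR44619 and CR46035. The Pde1c window holds mostly G and C and a pair of E-boxes.

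A second set of sequences is shown because several members from unlike exon classes held the same letters. They match AGNNGGCGC on either strand, the core of the kind found at fly sites of the insulator protein CTCF. The pattern was chosen after the members' sequences had been read. Its 9 bases are in capitals, in the form of the plus strand, at chr2L:11816529-11816558 in Pde1c, chr3L:506256-506285 in a coding exon of klar, chrX:18517602-18517631 in a coding exon of HisRS, chrX:2006000-2006029 in the 3′ UTR of Hr4, chr2L:2197328-2197357 in the 5′ UTR of COX7AL2, and in the lncRNAs CR44717 at chr3L:11248531-11248560, CR43838 at chrX:20760526-20760555 and CR43459 at chr3R:10100740-10100769.
Pde1c: gctggccgccAGGTGGCGCaattgtcccct
klar: cccagacccaAGGTGGCGCtgctgtgcaga
HisRS: gcaacgttccAGACGGCGCcctctggcggc
Hr4: ttcctcagtgGCGCCACCTgtatttagaga
CR44717: tctggccgctAGGTGGCGCcacgcatgccg
CR43838: gcgccctcatAGGTGGCGCtttcatgagaa
COX7AL2: gggcaatcggAGATGGCGCgcagtgagcgg
CR43459: attggccagaAGGTGGCGCtcgatgcgaca
The match lay 1 bp from the summit in HisRS, 2 bp in CR44717, 3 bp in CR43838 and 9 bp in Hr4. It lay farther off in klar, at 22 bp, in CR43459, at 39 bp, and in COX7AL2, at 40 bp. In Pde1c the match shown lay at 37 bp, and another on the opposite strand stood 8 bp from the summit. HisRS also held another match on the opposite strand, 4 bp from the summit, which overlaps the one shown. The remaining members with a match, whose sequences are not shown, were otp, at 24 bp, and Mef2, with matches at 15 and 33 bp. The distances over all 10 members with a match thus ran from 1 to 40 bp.

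Exonic summits were spread unevenly over the exon classes when counted against the bases of each class outside promoters. Exons of noncoding transcripts held 47.3 summits per Mb over 2.18 Mb, and 5′ UTRs held 27.3 per Mb over 1.06 Mb. In 3′ UTRs the density was 10.1 per Mb over 6.06 Mb. Coding exons held 0.481 per Mb over 18.7 Mb, which is the largest class by bases and the smallest by summits. The same count gave 165 per Mb in promoters, 39.5 in introns and 18.96 between genes. Noncoding exons thus lay between introns and promoters, and coding exons stood far below every other class. All 5636 peaks gave 41.0 per Mb, and lncRNA or antisense genes that span no pre-miRNA gave 40.0, close to introns. These densities carry no interval. As shares of the 202 members, noncoding exons made up 51.0% (43.9 to 58.1), 3′ UTRs 30.2% (24.0 to 37.0), 5′ UTRs 14.4% (9.83 to 20.0) and coding exons 4.46% (2.06 to 8.29). By chromosome arm, 46 members lay on 3L, 44 on 3R, 41 on 2R, 38 on X, 32 on 2L and 1 on chromosome 4.

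The members were of middling height. Their median signal value was 211, with a range of 126 to 3416, beside a median of 224 over all 5636 peaks. Class medians were 235 in 5′ UTRs, 219 in noncoding exons and 195 in both 3′ UTRs and coding exons, against 244 at promoters, 218 in introns and 204 between genes. The median member had rank 3048, at 54.1% of the list counted from the top. Of the 202 members, 44 were among the 1409 highest peaks, which is 21.8% (16.3 to 28.1) where the whole list gives 25% by construction. The share was 30.6% at promoters, 21.1% in introns and 18.0% between genes. The 44 were made up of 21 in noncoding exons, 11 in 3′ UTRs, 8 in 5′ UTRs and 4 in coding exons. As shares of each class these are 20.4% (13.1 to 29.5), 18.0% (9.36 to 29.98), 27.6% (12.7 to 47.2) and 44.4% (13.7 to 78.8), with intervals that overlap. The 4 highest members were all in noncoding exons.

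**Figure D1:**
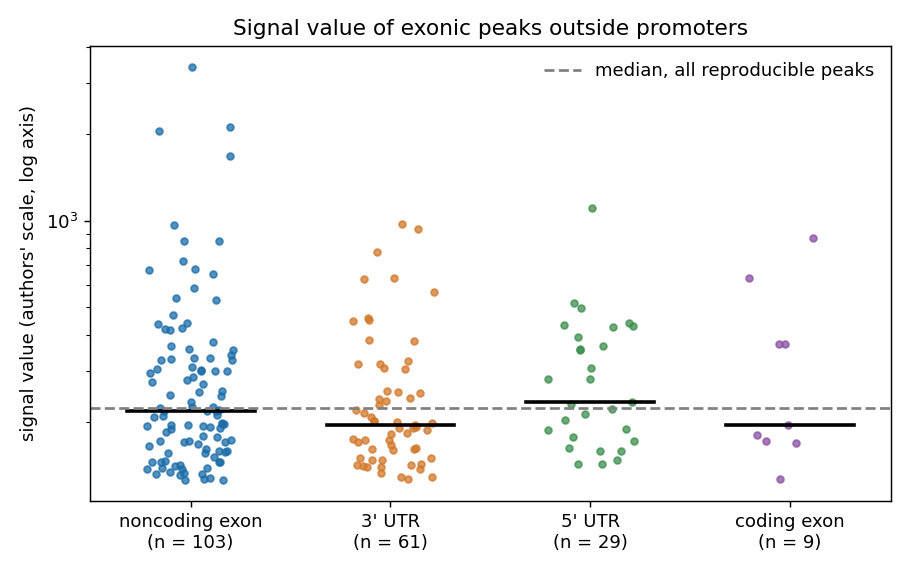
Signal value of each of the 202 members by exon class, on a log axis in the authors' undefined unit; black bars are class medians and the dashed line is the median of all 5636 peaks, 224. The classes overlap over most of their range, and the 4 highest points, from 1668 to 3416, are all in noncoding exons.

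Both replicates held nearly all of the members. Replicate 1 had a peak that overlapped 198 of the 202 members by at least 1 bp, or 98.0% (95.0 to 99.5), beside 96.8% of all reproducible peaks. Replicate 2 had one at 197, or 97.5% (94.3 to 99.2), beside 98.6%. Both replicates overlapped 193 members, where the share over the list was 95.5%. No member lacked a peak in both, and no peak of the whole list did. The list is chosen for agreement between these same replicates, so high shares follow from that choice. At a deposited q of at most 0.05, 193 members passed in replicate 1, 197 in replicate 2 and 188 in both, beside 94.3%, 98.6% and 92.9% of all peaks. The shares for the members are thus near those of the whole list. The summits of overlapping peaks lay a median of 18 bp away in replicate 1 and 5 bp away in replicate 2. Where several replicate peaks overlapped a member, the highest was taken, and its summit lay over 100 bp from that of the member for 12 members in replicate 1 and 5 in replicate 2. In each replicate, 4 members shared a peak with another member, since paired summits in CAP and in CR44365 fell under 1 replicate peak each.

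Across the 193 members with a peak in both replicates, signal values had a Spearman's rho of 0.743, beside 0.823 across 5381 reproducible peaks. Within classes rho was 0.804 for 100 noncoding exon peaks, 0.733 for 28 peaks in 5′ UTRs, 0.571 for 56 in 3′ UTRs and 0.933 for 9 in coding exons. These are descriptions across peaks that share their libraries and 1 control alignment. The highest member without a peak in 1 replicate was in the 3′ UTR of Cals, a calsyntenin gene, at chr4:1113177-1113486. Its signal value was 629 in the reproducible list and 467 in replicate 2, with no overlapping peak in replicate 1.

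**Figure D2:**
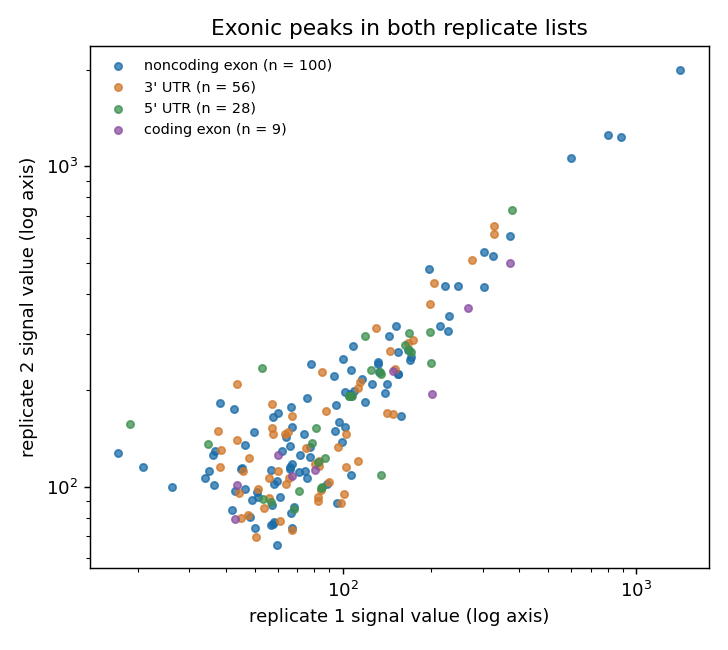
Signal value in replicate 1 (horizontal, log axis) and replicate 2 (vertical, log axis) for the 193 members with a peak in both lists, coloured by exon class. The points rise together, with a Spearman's rho of 0.743 over all classes, and scatter most among low values.

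Noncoding exons held the 4 highest members, but their median signal value of 219 was below the 235 of 5′ UTRs. Of the 103 peaks, 88 lay in lncRNAs known only by a CR number, 4 in lncRNAs with a given name, 5 in antisense RNAs, 4 in small nuclear RNAs (snRNAs), 1 in a small nucleolar RNA and 1 in a pre-miRNA. By gene, 73 of 1907 numbered lncRNAs, 3 of 38 named lncRNAs and 5 of 503 antisense RNAs held a member. None of 290 tRNA genes, 99 rRNA genes or 330 pseudogenes did. Their exons outside promoters cover 19.3, 18.7 and 221 kb, so for tRNA and rRNA genes a count of 0 is too little to set them apart from the 47.3 per Mb of noncoding exons. Of the 103 peaks, 26 were also inside a protein-coding gene, and in 19 of those the noncoding transcript ran on the opposite strand.

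Vinr, a lncRNA named for its induction by virus in fly cells, held the highest member, at chrX:12750854-12751631. Its signal value was 3416 in the reproducible list, 1416 in replicate 1 and 2005 in replicate 2. It ranked 8, 8 and 14 in these lists. The summit lay 1498 bp inside the transcript, and 5075 bp from the nearest protein-coding start. The nearest noncoding start, 475 bp away, was that of the lncRNA CR44619.

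The neighbouring lncRNA CR44619, which overlaps the end of Vinr on the same strand, held members at chrX:12752177-12752542 and chrX:12754382-12754682. The first reached 2043, with 799 in replicate 1 and 1250 in replicate 2, and ranked 46. The second reached 967, with 371 and 606, and ranked 253. Together with a peak of 229 in the 3′ UTR of CG4004, rank 2738, the locus held 4 members in 6156 bp. In both replicate lists the order of height among these 4 was the same, highest in Vinr and lowest in CG4004.

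CR31840 and CR46035 held the other members of rank under 100. The CR31840 peak, at chr2L:14023907-14024339, had a signal value of 2113, with 885 in replicate 1 and 1239 in replicate 2, and its summit stood 21 bp from the annotated start of that lncRNA. The CR46035 peak, at chr3R:17704236-17704598, reached 1668, with 599 and 1062. CR46035 lies inside osa, a gene for a subunit of a SWI/SNF chromatin remodelling complex, on the opposite strand. The remaining noncoding members among the 15 highest were in CR44676, CR44810, CR45251, CR44628 and CR44363, with signal values from 673 to 853. Each of these 5 was present in both replicates.

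Of the named lncRNAs, Hsromega held a pair of members and acal held one. Hsromega, the heat-inducible nuclear RNA that organises omega speckles, had summits 226 bp and 1019 bp from a start, with signal values of 531 and 287. The higher was 229 in replicate 1 and 307 in replicate 2, and the lower was 78.0 and 241. The replicates were less alike at the lower summit, which ranked 3129 in replicate 1 and 1351 in replicate 2. The acal member, in a lncRNA that acts in dorsal closure, had a signal value of 335, with 140 and 196 in the replicates.

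Many of the noncoding members lay within 500 bp of an annotated noncoding start, a position that the 500 bp rule for protein-coding starts does not remove. Of the 103, 47 were within 500 bp of a noncoding start, pre-miRNAs included, or 45.6% (35.8 to 55.7), beside 4.81% of all reproducible peaks. The start was that of a transcript of their own gene for 39. Within 200 bp the count was 18 for any noncoding start and 14 for a start of their own gene. Among intergenic peaks 58 of 755 were within 500 bp of a noncoding start, or 7.68%, and among intronic peaks 36 of 2148, or 1.68%. A summit inside a short noncoding exon is close to its start by geometry, so these shares describe position only. The median distance to a protein-coding start was 3794 bp for noncoding exons, the longest of the 4 classes.

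**Figure D3:**
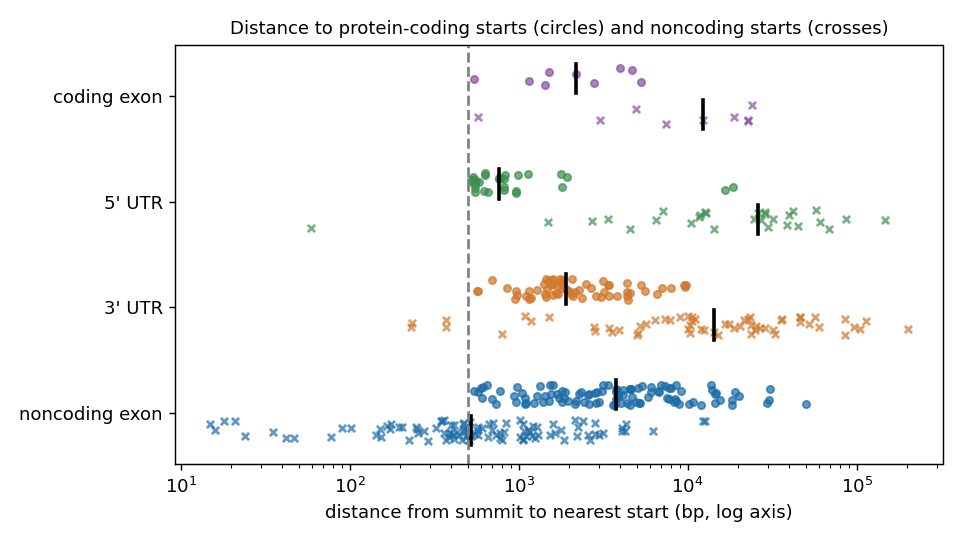
Distance in bp, on a log axis, from each summit to the nearest protein-coding start (circles) and the nearest noncoding start (crosses) by exon class; black bars are medians and the dashed line is 500 bp. Every circle lies beyond 500 bp by the rule, and 47 of 103 crosses for noncoding exons lie below it.

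The gene with the most members was the lncRNA CR43334, the primary transcript of the bantam microRNA, which promotes tissue growth and blocks cell death. Its annotated exons span chr3L:628435-643900, with the pre-miRNA mir-ban at chr3L:642208-642288, and its transcripts have more than 1 annotated start. Its 7 members spanned 14214 bp and ranked from 1153 to 5607. In order along the gene, their signal values were 126, 138, 255, 256, 418, 342 and 174. In replicate 1 they were 58.4, 34.9, 75.5, 66.4, 154, 141 and 61.8, and in replicate 2 they were 77.6, 112, 189, 178, 263, 210 and 129. The replicate 1 value of 34.9 belongs to an overlapping peak with its summit 813 bp from the gene's start, where the member's is at 1114 bp. A nearer replicate 1 summit, at 1069 bp, had only 19.1, rank 22618, so replicate 1 is weak at this member. The same pair of summits, 6428 bp and 12336 bp from the gene's start, was highest in both replicates. The summit at 12336 bp lay 1057 bp from another annotated start of the gene. The peak nearest the pre-miRNA lay 412 bp beyond it. The highest of the 7, at rank 1153, was among the 1409 highest peaks of the list, and the next ranked 1597. The remaining members ranked from 2379 to 5607, so the locus held peaks of unlike height rather than a single strong one.

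**Figure D4:**
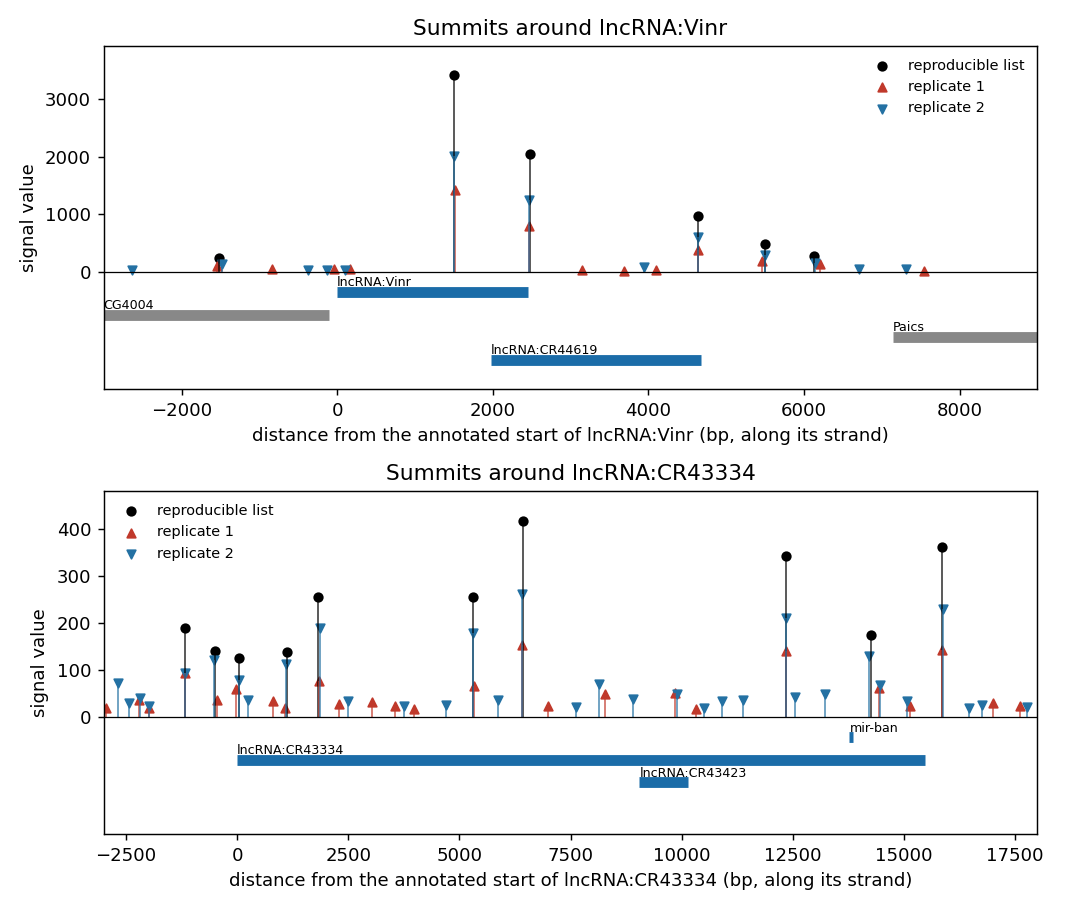
Signal values (vertical, authors' unit) of summits around Vinr (top) and CR43334 (bottom), by distance in bp from the gene's annotated start, in the reproducible list (black), replicate 1 (red) and replicate 2 (blue); bars below the axis are genes, blue for noncoding and grey for protein-coding. Around Vinr the 3 tallest reproducible summits are 3416, 2043 and 967, with others of 480, 269 and 229. CR43334 holds 7 summits of 126 to 418 spread along the gene, and reproducible summits beside it reach 363.

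Other lncRNA or antisense genes that span a pre-miRNA, called hosts here by position alone, also held members. This grouping was made after the members' genes had been seen. Of 37 lncRNA or antisense genes that span a pre-miRNA on their own strand, 9 held a member, or 24.3%, and of 2411 other such genes 72 did, or 2.99%. The hosts had 18 members over 168 kb of exon outside promoters, 107 per Mb, and the others 79 over 1974 kb, 40.0 per Mb. Without CR43334, 8 of 36 hosts held 11 members, at 72.2 per Mb, so the density rests in part on that gene. Within 10 kb of any pre-miRNA lay 24 members, or 11.9% (7.76 to 17.2), beside 4.68% of all reproducible peaks.

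Besides CR43334 and Hsromega, which spans mir-4951, the hosts were CR43459 (mir-277 and mir-34), CR43626 (mir-282), CR43857 (mir-275), CR46006 (mir-276a), CR45345 (mir-375), CR43650 (mir-8) and CR45911 (mir-13a, mir-13b-1 and mir-2c). The CR43459 members had signal values of 470 and 134, and the lower one lay 143 bp from mir-34. The CR43626 member had a value of 441, with 167 in replicate 1 and 267 in replicate 2. The CR43857 member had a value of 329, with 107 and 232, and lay 444 bp from mir-275. The members of CR46006, CR45345, CR43650 and CR45911 had values below 200. In all 9 hosts the summits lay in the host exon outside the pre-miRNA.

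The microRNAs of these hosts are shown to say which products the loci encode. They were read from the RefSeq copy of dm6 at the annotated positions of the mature RNAs, and are given in RNA letters, 5′ to 3′, with the seed (bases 2 to 8, which pair with targets) in capitals. They lie at chr3L:642259-642281 for bantam, chr3R:10100952-10100975 for mir-34, chr3R:10100080-10100102 for mir-277, chr2L:7425853-7425875 for mir-275, and, on the minus strand, chr3R:15417548-15417569 for mir-13a and chr3R:15417761-15417783 for mir-2c.
bantam: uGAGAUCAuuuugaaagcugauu
mir-34: uGGCAGUGugguuagcugguugug
mir-277: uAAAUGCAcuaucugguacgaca
mir-275: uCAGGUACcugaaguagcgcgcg
mir-13a: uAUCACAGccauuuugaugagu
mir-2c: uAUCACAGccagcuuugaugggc
The mir-13a and mir-2c sequences share their seed, and the other 4 seeds shown differ from it and from each other. Of the host microRNAs not shown, mir-13b-1 also has a mature RNA with the seed of mir-13a and mir-2c.

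Among small noncoding RNAs, snRNA genes held a summit most often. They were 4 of 32, or 12.5% of the genes, with 4 summits over 4.90 kb of exon outside promoters, beside 3.83% of numbered lncRNAs, 1 of 269 snoRNA genes and 1 of 260 pre-miRNAs. The 4 were U1:95Ca, U5:63BC and U4:39B, for RNAs of the spliceosome, and 7SKa, for the RNA that holds the elongation factor P-TEFb inactive. Their signal values were 249, 221, 139 and 219 in that order, with ranks of 2475, 2871, 5025 and 2897, so that U4:39B was low and the others stood near the middle of the list. Replicate 1 gave 94.2, 42.5, 57.1 and 99.5, and replicate 2 gave 149, 175, 76.0 and 138. The summits lay 24, 78, 15 and 277 bp from the annotated starts. Some snRNA genes have near-identical copies, and how reads that map to several places were treated is not stated in the sources used here, so the copy that these peaks belong to is uncertain. The snoRNA gene Psi18S-176 held a summit at 172, and mir-4962 the only summit inside a pre-miRNA, at 196.

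The 29 members in 5′ UTRs mostly lay just beyond the promoter limit. Their median distance to a protein-coding start was 771 bp, and 23 of 29 were within 1000 bp. For 27 of 29 the nearest such start belonged to the same gene. The highest was an exception, in the 5′ UTR exon of baz, the Par-3 scaffold of apical cell polarity, at chrX:17178518-17178862. Its signal value was 1101, with 377 in replicate 1 and 731 in replicate 2, and its summit lay 18688 bp from the nearest protein-coding start. A further baz member in the same exon had a value of 203, with 82.4 and 119.

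The next 5′ UTR members stood near their starts. The peak in cic, for the HMG-box repressor Capicua of Ras signalling, had a value of 518, with 199 in replicate 1 and 304 in replicate 2, at 580 bp. Fbl6, an F-box protein gene, had 499, with 168 and 302, at 544 bp. CG30015 had 442, with 170 and 263, at 663 bp. CAP, for an adaptor protein of cell adhesion sites, held 3 members, at 553 to 972 bp from a start, with values of 143 to 282.

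At the 500 bp limit itself the values on either side were alike in kind. The nearest members outside it were in Pdp1, a bZIP factor gene of the circadian clock, at 524 bp with a signal value of 282, and COX7AL2, at 530 bp with 232. Just inside it, and so not members, were summits at 499 bp in FucTC, with 205, and at 497 bp in prtp, with 488. The Pdp1 peak was 53.0 in replicate 1, rank 5024, and 234 in replicate 2, rank 1419. The COX7AL2 peak was 135 in replicate 1 and 108 in replicate 2.

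The 61 members in 3′ UTRs mostly lay near transcript ends, as the place of a 3′ UTR in its gene makes likely. The median distance to the end of their own transcript was 241 bp, with 39 of 61 within 500 bp and 18 within 100 bp. For 34 of 61 the nearest protein-coding start was that of the same gene, and for the others it was a neighbour's. The highest lay in APC7, for a subunit of the anaphase-promoting complex, at chrX:6599350-6599647. Its signal value was 975, with 328 in replicate 1 and 651 in replicate 2, and the nearest start, 565 bp away, was that of pigs.

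The next was in by, the tensin gene blistery, at chr3R:9528486-9528808, with a value of 937 and replicate values of 328 and 614. A lower by member of 161 lay 952 bp away in the same 3′ UTR. CG7872 followed with 778, 276 in replicate 1 and 511 in replicate 2, 58 bp from its transcript end. The member in stas, the stasimon gene, had 630, with 204 and 434. The gene eas, for ethanolamine kinase, had a summit in each untranslated end, at 369 in the 5′ UTR and 188 in the 3′ UTR.

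Coding exons held 9 members, fewer than any other class. All 9 had a peak at a q of at most 0.05 in both replicates (66.4 to 100%), beside 92.9% of all reproducible peaks. The highest was in otp, for the homeodomain factor Orthopedia, at chr2R:20884439-20884763. Its signal value was 868, with 372 in replicate 1 and 498 in replicate 2. Pde1c, for a calcium-dependent phosphodiesterase, followed at chr2L:11816432-11816757 with 634, 267 and 362. The otp and Pde1c summits were 4672 bp and 2800 bp from any protein-coding start.

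The other 7 coding summits were lower. The gene l(3)mbn had a value of 374, with 148 in replicate 1 and 230 in replicate 2. CG10357 had 373, with 202 and 195, the only coding member with a higher signal value in replicate 1. By rank within each list, otp, Pde1c, l(3)mbn, CG31259 and klar also stood higher in replicate 1. CG4822, scrib and HisRS ranked higher in replicate 2. CG31259 and CG4822 had 195 and 181. The cell polarity gene scrib had 172, with 43.5 and 102. The gene klar, for a protein that ties nuclei to microtubules, had 169, with 66.9 and 108. HisRS, the histidyl-tRNA synthetase gene, had 127, with 42.8 and 79.2. Thus 4 of the 9 were among the highest 1409 peaks and 5 were in the lower part of the list.

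Summits in all classes but coding exons were poor in G and C. In windows of 50 bp to each side of the summit the members had a mean GC content of 35.6% ± 10.6 (SD, n = 202), against 41.5% ± 9.78 in windows 500 bp to each side (n = 404). Noncoding exon summits had 34.7% ± 10.1, where all windows of such exons outside promoters had 43.2% ± 9.47. The 3′ UTR summits had 32.8% ± 8.13 against 35.4% ± 8.81, and 5′ UTR summits 38.4% ± 10.3 against 45.3% ± 10.2. Coding exon summits had 56.2% ± 10.2 against 52.6% ± 7.72 for coding windows in general and 43.4% ± 8.79 for their own flanks. All 5636 summits had 32.8% ± 9.29, so coding summits lay opposite to the list, above their flanks rather than below. These SDs are over windows and are as large as most of the differences.

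**Figure D5:**
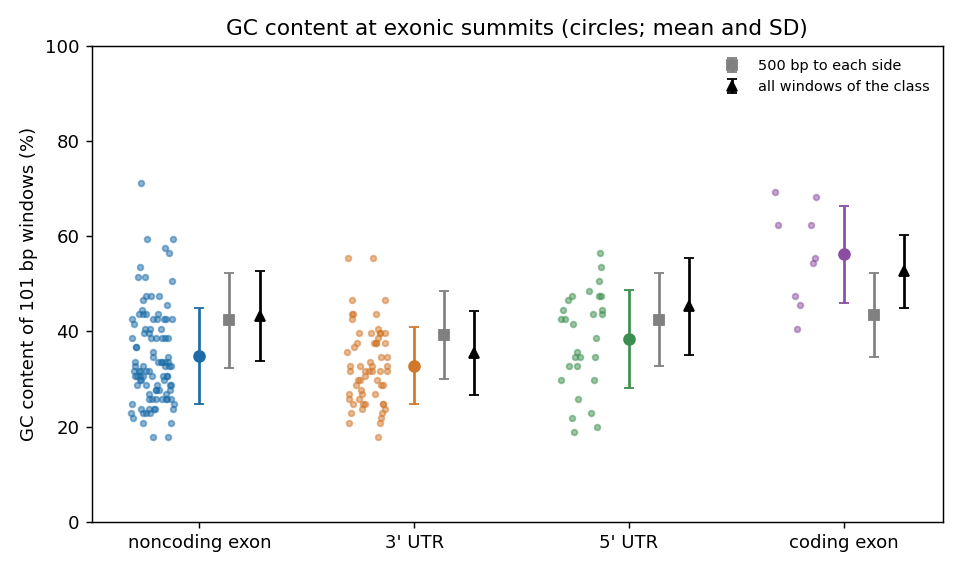
GC content in percent of windows of 50 bp to each side of a centre, by exon class, with each summit as a point, the summits' mean and SD as a coloured circle, windows 500 bp to each side as a grey square and all windows of the class as a black triangle. Summits lie below flanks in noncoding exons, 3′ UTRs and 5′ UTRs, and above them in coding exons, at 56.2% against 43.4%.

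E-boxes were about as frequent at the members as in the list. In windows of the same width, CANNTG stood in 68 of 202 windows, or 33.7% (27.2 to 40.6), beside 33.9% of all reproducible peaks and 42.8% of the members' own flanks. Sequence composition differs between summits and flanks, as given above, and its part in this difference was not tested. The shares were 30.1% in noncoding exons, 34.4% in 3′ UTRs and 37.9% in 5′ UTRs, and 5 of 9 in coding exons. Of single E-box forms, CAGCTG stood in 13 windows, 6.44% (3.47 to 10.8) beside 3.55% of all peaks, and in 6.44% of flanks. CATATG stood in 10, or 4.95% beside 3.83%, and CAAATG in 13, or 6.44% beside 9.9%. Of the rest, CAAGTG stood in 10 windows (4.99% of all peaks), CAATTG in 9 (4.19%), CAACTG in 8 (4.67%) and CAGATG in 8 (2.66%). CACCTG stood in 7 (2.25%), CACATG in 6 (3.3%) and CACGTG in 1 (0.656%). Each of these 10 forms was counted with its reverse complement.

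Core promoter elements of fly housekeeping genes were not found at the members, which by the rule lie away from protein-coding starts. TATCGATA, the site of the factor DREF, stood in 0 of 202 windows, which allows a share of up to 1.81%. It stood in 1.51% of all peaks, 3.003% of promoter peaks, 0.233% of intronic peaks and 0.530% of intergenic peaks. GGTCACACT, the element called motif 1, also stood in 0, beside 0.532% of all peaks, 0.0931% of intronic and 0.132% of intergenic peaks. With shares this low outside promoters, a count of 0 in 202 windows does not set the members apart from those classes. GAGAG, the site of GAGA factor, stood in 28, or 13.9% (9.41 to 19.4), beside 8.96% of all peaks and 13.1% of the members' flanks. CAGGTA, a site of the early embryonic factor Zelda, stood in 2, beside 2.08%. AATAAA, the letters of the polyadenylation signal, stood in 70, or 34.7%, beside 33.1% of all peaks. Flanks held it less often, in 19.8% for the members and 18.7% for all peaks. The part of sequence composition in this was not tested. At summits AATAAA stood in 36.1% of 3′ UTR windows, 36.9% of noncoding exon windows and 34.5% of 5′ UTR windows. It thus did not set 3′ UTR summits apart from those classes. In coding exons it stood in 0 of 9.

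The CTCF-type core AGNNGGCGC stood in 10 of 202 windows, or 4.95% (2.40 to 8.92), beside 1.49% of all reproducible peaks and 1.49% of the members' flanks. It was found in 4 of the 9 coding exon summits, those of otp, Pde1c, klar and HisRS, or 44.4% (13.7 to 78.8), and in 0 of their 18 flanks. All such windows of coding exons outside promoters held it in 1.93% of cases. The other matches were 3 in noncoding exons (CR43838, CR44717 and CR43459), 2 in 5′ UTRs (Mef2 and COX7AL2) and 1 in the 3′ UTR of Hr4. Among the other classes the share was 3.18% between genes, 1.34% at promoters and 0.745% in introns. Because the pattern was read from these same sequences, the counts describe them and give no independent support. The core shares letters with E-boxes at some members, as with CACCTG in Hr4 and CATCTG in Pde1c. A match is letters only, and says nothing of which protein was bound there.

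Most members had no other reproducible summit close by. Another reproducible summit lay within 1 kb of 43 of them, or 21.3%, beside 18.3% of all peaks, and the median distance to the nearest was 3307 bp beside 3510 bp. When members no more than 10 kb apart were joined, 17 groups held 43 of the 202. The largest after CR43334 and Vinr were 3 members in CR44365 and CR44366, over 1176 bp, and 3 in CR44603, over 5585 bp. In all, 15 genes held more than 1 member.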

How the data were processed

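Chromatin immunoprecipitation sequencing of 2 biological replicates was analysed from narrowPeak lists on dm6. The deposited lists give the authors' signal value per peak and their −log10 q; in the reproducible list the deposited −log10 q is 4.09 for every peak. Each replicate list and the pooled list hold 30000 peaks. Per the deposited file descriptions, replicate lists were called against 1 shared control alignment, and the reproducible one rests on both replicates and the pooled list. Not given in the sources used here are aligner, caller and the treatment of multi-mapping reads. There are no read counts, so depth is unknown.

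Summits were placed on the Ensembl release 115 annotation (BDGP 6.54, dm6 coordinates, transposable elements left out) in the order 5′ UTR, coding exon, 3′ UTR and noncoding exon. Of the 202 members 2 lie in exons of more than 1 class, and 1 summit lies outside its stated interval. Coordinates are 1-based. Sequence came from the RefSeq genome of the same assembly, in which 99.8% of 30618 annotated start codons read ATG. In all, 17 motif patterns were searched on both strands of windows of 50 bp to each side of the summit. Ranks and signal values describe peaks within a list only. Counting was checked on simulated data. Values were computed with scipy 1.17.1, pandas 2.3.3 and numpy 2.4.6 in Python 3.11.15, and drawn with matplotlib 3.10.9.

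The members, lists and alternatives were chosen with earlier results of these data known. Named genes are those of every coding exon member, the 15 highest members, the 4 highest of each class, biotype and symbol family, the pair on either side of the 500 bp limit, and genes with more than 1 member. Genes named for a motif match, for a host microRNA or for a missing replicate peak were chosen after their values were seen. Alternatives changed the list, the promoter distance, the summit position, the overlap rule, the class order and the window.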

Additional observations from a re-analysis of the deposited data

How the results depend on the processing

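Of 54 alternative values, 11 moved, by over 1.5 times for the count of members, outside the main 95% interval for shares, or by more than the SD between the single-replicate lists for GC content and rank. A promoter distance of 250 bp gave 250 members and one of 1000 bp gave 159. When the reproducible list was replaced by as many top peaks of a single replicate, the number of members changed by at most 3, to 205, and the noncoding share was 45.9% to 51.2%, the share near a noncoding start 48.5% to 50% and the E-box share 36.8% to 38.0%. On the same lists mean GC content was 35.3% to 37.1% and the median rank percentile 51.9 to 53.6. The share with a replicate 1 peak was 92.0% without replicate 1, and that with a replicate 2 peak 96.1% without replicate 2. The converse shares, of each replicate's peaks with themselves, were not computed. With 2818 peaks, the higher part of the list, members numbered 91, GC content was 33.9% and the rank percentile 50.5. Overlap of 50% of both peaks lowered the replicate 1 share to 76.7% and the replicate 2 share to 89.6%, and summits within 100 bp gave 94.6% for replicate 1. A limit of 200 bp left 17.5% near a noncoding start, and windows of 100 bp to each side held an E-box in 60.9%.

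No paired analysis was possible because the 2 replicates form 1 group. Depth is unknown, no untagged sample was analysed, and the values of the control were not used here.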
